A study of Homo sapiens with 2 samples.

Results

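The NF-kB transcription factors and the genes that restrain them were examined in HCT116 cells, a human colorectal cancer line, with and without a vector for CPEB4. The set holds 10 genes: the subunits RELA, RELB, REL, NFKB1 and NFKB2, the inhibitors NFKBIA, NFKBIB and NFKBIE, and the feedback genes TNFAIP3 and BIRC3. Members were all probe sets (groups of array probes read as 1 value) that the platform annotation pairs with 1 of these genes alone. This gave 20 of the 54675 probe sets on the array, for 9 of the 10 genes, and BIRC3 is not analysed here.

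Total RNA from each of 2 cultures was labelled with biotin and read on 1 array. The culture titled HCT116-GFP carries the genotype label wildtype, and the culture titled HCT116-CPEB4 was made to over-express CPEB4, an RNA-binding protein that acts on poly(A) tails, with a lentivirus. Both share the HCT116 background and the same medium. What drives the CPEB4 vector, whether either line is a single clone and whether the HCT116-GFP cells received a vector of their own are details not given in the sources used here. With 1 array for each group no test is possible, so every difference compares these 2 arrays and has no replicate check.

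NF-kB dimers of REL-family proteins are held in the cytoplasm by IkB proteins. Signals from receptors such as those for TNF and interleukin-1 activate the IKK kinases, IkB is phosphorylated, ubiquitinated and degraded, and the dimer enters the nucleus. Several of its target genes encode its own inhibitors and subunits, which makes the pathway a feedback circuit, and in colon epithelium it is known for linking inflammation to chemokine production and cell survival.

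Median intensities were 60.6 (HCT116-GFP) and 61.1 (HCT116-CPEB4). CPEB4 did not read higher on the array labelled HCT116-CPEB4, at 731 against 628 for its brightest probe set, and its other probe sets differed by −0.44 and −0.075 on the log2 scale, or, under the filter on dim values described below, read 60.1 and 21.0. The part of the transcript these probe sets read is not known here, and one outside the introduced sequence would check nothing, so every direction below rests on the label. In bulk RNA, fewer cells with a transcript and less of it per cell cannot be told apart. Of 10 colon epithelium markers, 9 passed that filter and the summed intensity of all 10 was 87840 and 88704, whereas 3 of 9 immune, 2 of 6 fibroblast and 1 of 4 endothelial markers with a probe set did so. Over all markers with a probe set, summed immune intensities were 554 and 503, fibroblast 1108 and 1499, endothelial 232 and 131, none of the markers was at 0, and their part in the results was not tested. The ratio of 3′ to 5′ signal of ACTB, a measure of RNA quality, was 8.23 in HCT116-GFP and 10.3 in HCT116-CPEB4. For GAPDH it was 0.989 and 1.04, and the part of RNA quality in the values below was not tested.

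Promoter sequence is shown first because several members are themselves known NF-kB targets. RefSeq sequence of the 250 bases before each annotated start (build GRCh38.p14) was available for 8 of the 10 members, in 13 windows, and was searched on both strands for the NF-kB consensus of 10 bases. At least 1 match lay in 8 of the 13 windows and in 7 of the 8 genes, against 9.96% of 35116 windows and 11.8% of 27305 genes overall. RELA was the member without a match in its windows, and RELB and NFKBIE had no sequence to search. Matches fall in 11 stretches, 2 of them in BIRC3. Those of the measured members are shown, for NFKB2 the first and the last of its 4, 5′ to 3′ on the gene's strand, with the matched bases in capitals. Matches on opposite strands overlap in REL, NFKBIB and the first NFKB2 stretch.
NFKBIA, chr14:35404811-35404840, minus strand: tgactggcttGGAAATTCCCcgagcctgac
TNFAIP3, chr6:137867182-137867223, plus strand: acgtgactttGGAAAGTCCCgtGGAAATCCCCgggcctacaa
NFKBIB, chr19:38899931-38899961, plus strand: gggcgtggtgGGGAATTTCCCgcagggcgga
REL, chr2:60881517-60881547, plus strand: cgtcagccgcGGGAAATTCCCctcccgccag
NFKB1, chr4:102501300-102501329, plus strand: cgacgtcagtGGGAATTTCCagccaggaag
NFKB2, chr10:102394461-102394491, plus strand: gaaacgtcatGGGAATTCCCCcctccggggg
NFKB2, chr10:102395674-102395703, plus strand: tggtattttcGGGACTTTCCtaagctgctc

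The first base of the match, or of the matches, lies 81 bases before the start in NFKBIA, 67 in TNFAIP3, 28 in NFKBIB, 47 in REL and 49 in NFKB1. NFKB2 has 3 windows with 0, 3 and 2 matches, and the stretches shown begin their matches 107 and 21 bases before the start of their window's transcript. A match is a description of the letters and not evidence of binding. The measured members that carry one read in both directions below.

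Differences are given on the log2 scale, as HCT116-CPEB4 minus HCT116-GFP, for the probe set named. Probe sets with both intensities under 60.8, the median of all values, were set aside as dim, which left 16 of the 20 member probe sets and 25010 probe sets of single genes in all. The brightest remaining probe set by mean log2 intensity stood for its gene, which gave 9 member genes among 13704. Of the 9, 6 read higher on the array labelled HCT116-CPEB4 and 3 lower, where 50.1% of all genes lay above 0. Their median difference was 0.34 against 0.00090 over all genes. Of the 9, 1 differed by 2-fold or more (a rule of size, met by 7.4% of all genes), and that was NFKB2, which read lower, as did 3.85% of all genes by that rule. NFKB2 passed the filter through its HCT116-GFP value alone. With both arrays required to pass it, 0 of 8 members and 1.31% of 12130 genes differed by 2-fold. Counted by probe set, 11 of the 16 lay above 0 and 5 below, beside 50.4% above 0 among all kept probe sets, and 1 passed 2-fold beside 9.08%.

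**Figure D1:**
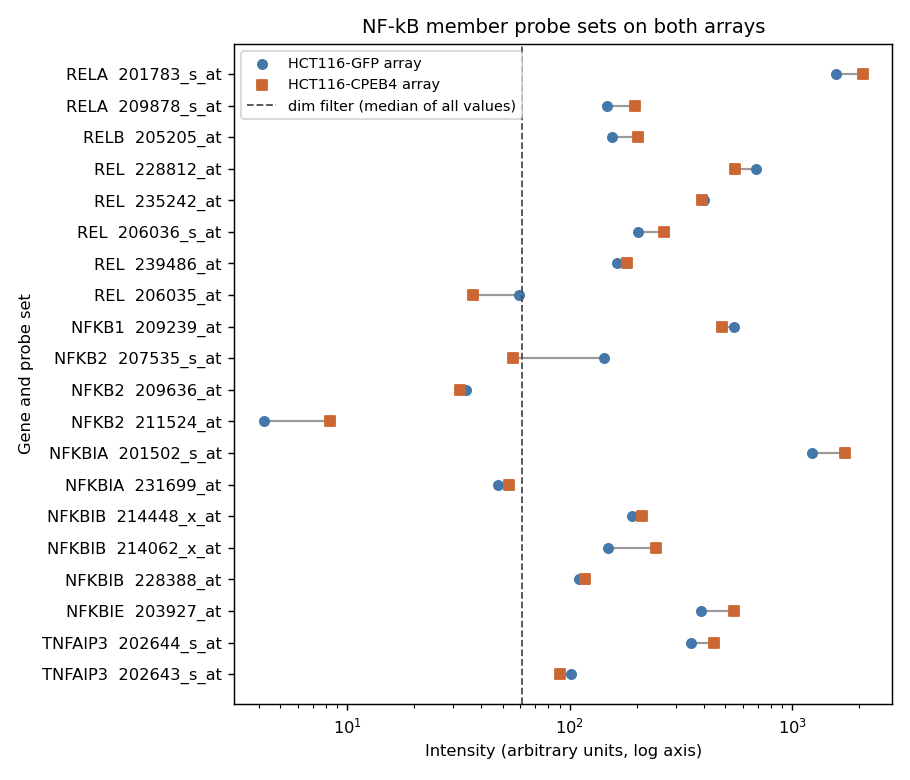
Intensity (arbitrary units, log axis) of the 20 member probe sets for HCT116-GFP (circles) and HCT116-CPEB4 (squares), joined by a line for each probe set, with the dim filter of 60.8 dashed. The squares of RELA, RELB, NFKBIA, NFKBIB and NFKBIE lie to the right of the circles, and the longest line among kept probe sets is that of NFKB2, from 142 to 55.8.

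RELA, RELB and REL carry the domains that activate transcription. RELA, the main partner of p50 in the canonical dimer, had intensities at probe set 201783_s_at of 1572 in HCT116-GFP and 2066 in HCT116-CPEB4, a difference of 0.39 or 1.31-fold. Its second probe set, 209878_s_at, read 147 and 196, a difference of 0.42. Both probe sets of RELA thus read higher on the array labelled HCT116-CPEB4, by nearly the same amount although their brightness differs widely.

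RELB, the activating subunit of the non-canonical pathway, has 1 probe set, 205205_at. It read 154 and 202, a difference of 0.39 or 1.31-fold. RELA and RELB stood at percentiles 86.0 and 85.8 of all genes, so about the same distance above 0 as each other. Among kept probe sets of like brightness, 201783_s_at of RELA stood at percentile 94.5 and RELB at 81.3.

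REL, the subunit known best from lymphocytes, did not have a settled direction. Its brightest probe set, 228812_at, read 684 in HCT116-GFP and 553 in HCT116-CPEB4, which is −0.31 on the log2 scale. The next, 235242_at, read 402 and 393, a difference of −0.031. In the other direction, 206036_s_at read 203 and 266 (0.39) and 239486_at read 163 and 181 (0.15). The fifth probe set, 206035_at, lay under the dim filter at 59.0 and 36.6. The 4 kept probe sets of REL were split evenly around 0, spanned 0.69 on the log2 scale and averaged 0.051.

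NFKB1 and NFKB2 encode the precursors p105 and p100, which are processed to the DNA-binding subunits p50 and p52 and, unprocessed, act as inhibitors. NFKB1 read 547 in HCT116-GFP and 483 in HCT116-CPEB4 at its only probe set, 209239_at, a difference of −0.18. That placed it at percentile 29.0 of all genes, inside the central spread of probe sets of its brightness.

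NFKB2 gave the largest member difference, at a dim probe set. Probe set 207535_s_at read 142 in HCT116-GFP and 55.8, a dim value, in HCT116-CPEB4, a difference of −1.35, or 2.55-fold lower. Among kept probe sets of like brightness, 13.7% differed by 2-fold or more. The other probe sets of NFKB2 lay under the filter on both arrays: 209636_at read 34.1 and 32.1, and 211524_at read 4.23 and 8.40. NFKB2 therefore rests on 1 probe set, and with 32 units added to both arrays before the logarithm its difference was −0.99.

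The cytoplasmic inhibitors all read higher on the array labelled HCT116-CPEB4. NFKBIA encodes IkB-alpha, the fast-turnover inhibitor that NF-kB itself induces. It read 1222 and 1718 at 201502_s_at, a difference of 0.49 or 1.41-fold. Its dim second probe set, 231699_at, read 47.6 and 53.3.

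NFKBIE, which encodes IkB-epsilon, read 387 and 545 at its only probe set, 203927_at, again a difference of 0.49 and 1.41-fold. NFKBIA and NFKBIE both stood at percentile 89.7 of all genes, and at 96.1 and 92.1 among kept probe sets of like brightness.

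NFKBIB, which encodes IkB-beta, differed less at its brightest probe set, 214448_x_at, which read 191 and 211, a difference of 0.14. That placed NFKBIB at percentile 67.4 of all genes. Its probe set 214062_x_at read 149 and 244 (0.71), and 228388_at read 109 and 117 (0.10). Among kept probe sets of like brightness, the 3 stood in this order at percentiles 60.3, 94.1 and 58.6. All 3 probe sets of NFKBIB lay above 0, but 0.61 apart on the log2 scale, and the probe set with the large value carries the suffix for possible cross-hybridisation, as does the brightest.

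TNFAIP3 encodes A20, a ubiquitin-editing enzyme that shuts down signalling to IKK and is induced by NF-kB. At 202644_s_at it read 352 in HCT116-GFP and 446 in HCT116-CPEB4, a difference of 0.34 or 1.27-fold. Its second probe set, 202643_s_at, read 102 and 90.7, a difference of −0.16. The direction of TNFAIP3 thus differed between its probe sets, and their mean was 0.089.

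Agreement among probe sets of 1 gene measures error within an array and holds no error between cultures. Of the 4 members with at least 2 kept probe sets, REL and TNFAIP3 had probe sets on both sides of 0, which was so for 54.5% of the 6520 such genes on the array. The gap was taken between the log2 differences of the 2 brightest kept probe sets of a gene. Its median was 0.27, and its 90th percentile was 1.01. That gap is on the same scale as the member differences and shows how far 2 probe sets of a gene disagree. Both are read on the same 2 arrays, so the gap leaves out the error between cultures.

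Differences were wider among dim probe sets. The 25010 kept probe sets were divided into 10 bands by mean log2 intensity, and the share past 2-fold ran from 63.2% in the dimmest band to 0.16% in the brightest. The share in the dimmest band is partly set by the filter, which keeps a probe set of low mean only where 1 array reads much higher. In the next band it was 13.7%. Each member was set against the 5th to 95th percentile of its own band. Of the 16 member probe sets, 2 lay outside that range, where 10% of all probe sets do by construction. NFKBIA lay just above its band, at 0.49 against an upper limit of 0.45. NFKB2, whose HCT116-CPEB4 value was itself under the filter, lay below its band, at −1.35 against a lower limit of −1.14. The bright RELA probe set lay just inside, at 0.39 against 0.40, and NFKBIE was inside at 0.49 against 0.58.

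**Figure D2:**
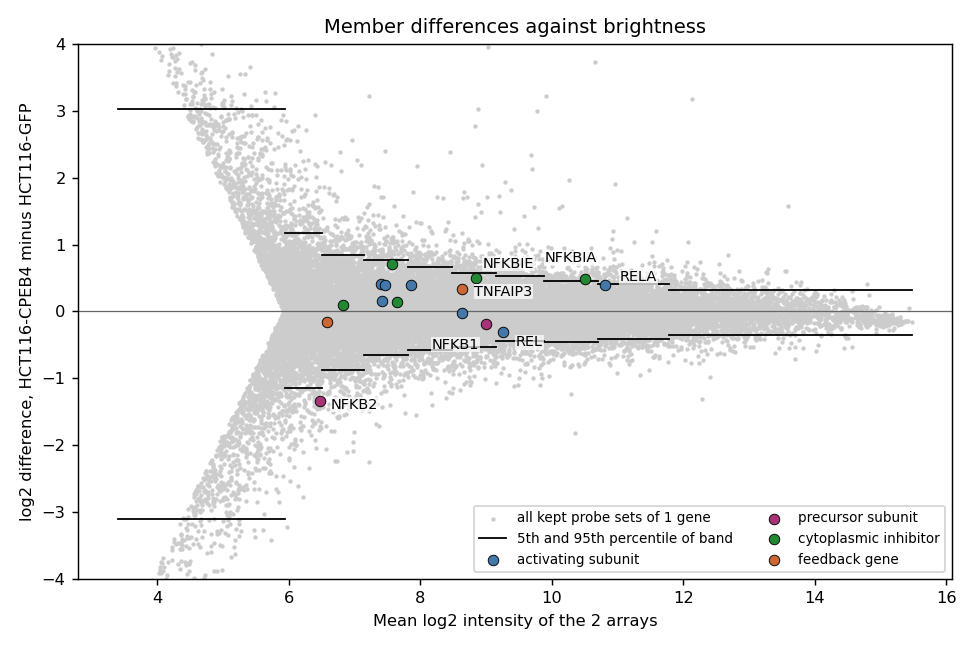
log2 difference (HCT116-CPEB4 minus HCT116-GFP) against mean log2 intensity for all kept probe sets (grey) and the 16 kept member probe sets, coloured by role, with the 5th and 95th percentile of each of 10 brightness bands as black lines. The axis ends at 4 either side of 0, beyond which lie 52 grey points. Names stand beside the brightest probe set of a gene, and NFKBIA lies just above its band and NFKB2 below its band.

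The genes that carry the signal to NF-kB were then compared, from lists of ligands and receptors, adaptors, kinases, the ligase of IkB and other inhibitors. Of 62 measured genes in these lists, 38 lay above 0 and 24 below, with a median of 0.058, beside 50.1% of all genes above 0. By 2-fold or more, 2 differed, or 3.23% beside 7.4% of all genes, each kept through 1 array alone. With both arrays past the filter the counts were 0 of 57 beside 1.31%. TLR3, a receptor for double-stranded RNA, read 53.4, a dim value, and 229, and its other probe set differed by 0.35. IL1B, which encodes the cytokine interleukin-1 beta, read 72.8 and 15.7, the latter under the filter, and its other probe set differed by −2.89. The 13 measured ligands and receptors split 7 to 6 around 0 at the brightest probe set. Another kept probe set stood at 3.29 for CD40 and at −1.56 for LTBR, against −0.31 and 0.81 at the brightest. The bright ligand IL18 read 5320 and 6635 (0.32) and the receptor of TWEAK, TNFRSF12A, read 7065 and 7302 (0.048).

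Among 19 adaptors and their kinases, 11 lay above 0, beside 50.1% of all genes, and the median was 0.094. None differed by 2-fold at the brightest probe set, beside 7.4% of all genes. A second, dim probe set of the kinase IRAK2 stood at 2.71, against −0.37 at the brightest. RBCK1, which encodes HOIL-1 of the linear ubiquitin ligase, read 4374 and 6136 (0.49), and its second probe set differed by 0.48. BIRC2, a ubiquitin ligase of the TNF receptor complex, read 6116 and 6040 (−0.018).

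In the kinase complexes that act on IkB and their relatives, 6 of 8 genes lay above 0, beside 50.1% of all genes. IKBKG, CHUK and TANK, at 0.044 or less, are among the 6. None of the 8 differed by 2-fold at the brightest probe set, beside 7.4% of all genes. CHUK, the kinase IKK-alpha, read 3222 and 3272 (0.022), and the scaffold TANK read 4608 on both arrays. Outside the rule for named genes and chosen after its value was seen, MAP3K14 is described because its kinase, NIK, triggers the processing of p100. It read 151 and 82.7, a difference of −0.87, at 1 probe set. IKBKE, chosen in the same way, encodes a kinase close to IKK. It read 99.0 and 195 (0.98), and its second probe set differed by 1.55.

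Of the 6 measured genes of the ligase that ubiquitinates IkB, 5 lay above 0, beside 50.1% of all genes, with a median of 0.13. Among the 5 are FBXW11 and RBX1, at 0.036 or less. NEDD8, the modifier that activates the ligase, is also among them, at 9887 and 12445 (0.33). BTRC stood at 0.49 at the brightest probe set and at −1.56 at another kept probe set. SKP1, the subunit that joins the F-box protein to the cullin, read 28318 and 27850 (−0.024).

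Of 16 further inhibitors, 9 lay above 0, beside 50.1% of all genes. None of these inhibitors differed by 2-fold at the brightest probe set, beside 7.4% of all genes. Another kept probe set of OTUD7B stood at 1.71, against −0.23 at the brightest. The A20 partners TAX1BP1 and RNF11 read 5889 and 5611 (−0.070) and 7309 and 7845 (0.10). TNIP1, another A20 partner and likewise chosen after its value was seen, read 1039 and 1518 (0.55).

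NF-kB target genes outside the member set did not share one direction. Of 28 measured targets, 14 lay above 0 and 14 below, with a median of 0.013, and 4 read higher by 2-fold or more, or 14.3% beside 3.55% of all genes in that direction. With both arrays past the filter, 3 of 26 did, or 11.5% beside 0.734%. All 4 encode chemokines. Because the lists were chosen with earlier results of these data known, these shares describe the list and are no test of it. The neutrophil attractants CXCL1 and CXCL2 read 130 against 349 (1.43) and 84.8 against 235 (1.47). CCL5, an attractant of T cells, read 64.3 and 292 (2.19), and all 3 of its probe sets lay between 1.98 and 4.43. CXCL10, which interferon also induces, read 5.80 against 97.7, the first far under the dim filter, so no size is read from the difference.

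By kind of product, and beside 50.1% of all genes above 0, 7 of 8 cytokine and chemokine targets lay above 0, among them CXCL8 at 0.029. Of 5 measured adhesion and surface genes 0 lay above it, among them EFNA1 at −0.0036, and the difference between the kinds was not tested. The survival and signalling genes split 5 to 5, and the enzymes and secreted proteins 2 to 3, at the brightest probe set. Other kept probe sets reached 3.58 for TNFAIP8, 2.41 for CFLAR and −2.08 for PLAU, against −0.34, 0.53 and −0.44 at the brightest. The bright targets CD44, a surface receptor, and IER3, an early response gene, read 12658 and 12445 (−0.025) and 23647 and 19669 (−0.27), although the 10 probe sets of CD44 ran from −0.62 to 1.21. In the 250 bases before the start, 16 of 30 target genes with RefSeq sequence held the NF-kB consensus, beside 11.8% of all genes.

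**Figure D3:**
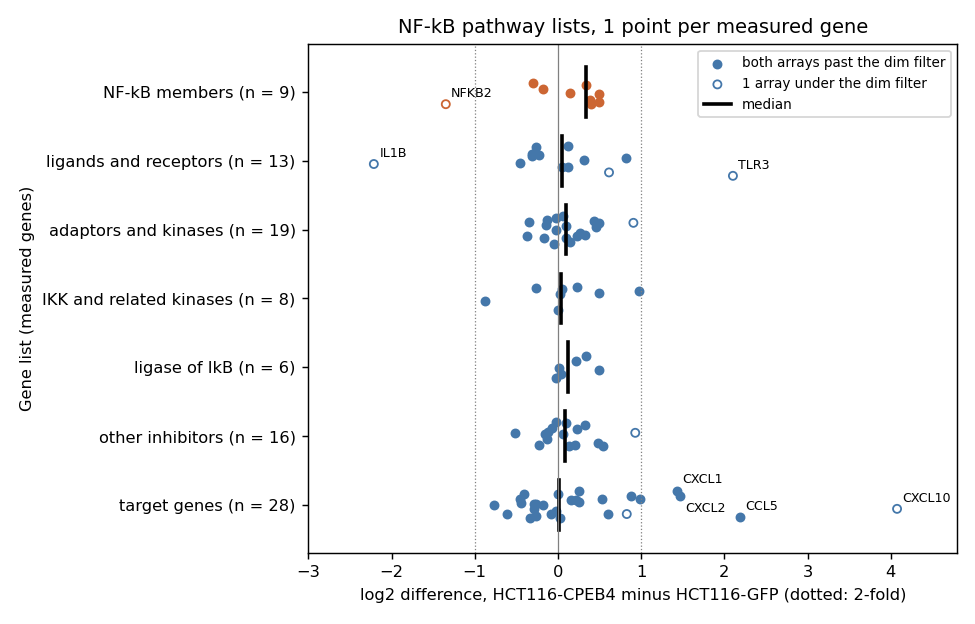
log2 difference (HCT116-CPEB4 minus HCT116-GFP) of each measured gene in the member set and 6 other NF-kB lists, with 1 point for each gene, open where 1 array was under the dim filter, a black bar at the list's median and dotted lines at 2-fold. The member median lies at 0.34 and the target median at 0.013, with CXCL1, CXCL2, CCL5 and CXCL10 to the right of 2-fold.

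The member differences were recomputed under 8 other processing settings. NFKBIA ran from 0.48 to 0.49, NFKBIE from 0.46 to 0.49, RELA from 0.39 to 0.40 and RELB from 0.33 to 0.39 over the settings in which each was measured. NFKB1 stayed between −0.20 and −0.17. RELB, NFKBIA, NFKBIE, NFKB1 and NFKB2 have 1 kept probe set each. The filters and the mean over probe sets could not move their values, and only scaling and the pseudocount could. TNFAIP3 was 0.089 and REL turned to 0.051 with the mean over probe sets, while NFKBIB was 0.32. NFKB2 was not measured where both arrays had to pass the filter, under the 75th percentile filter, or without x_at and s_at probe sets. RELA, NFKBIA and TNFAIP3 were likewise not measured without x_at and s_at probe sets.

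**Figure D4:**
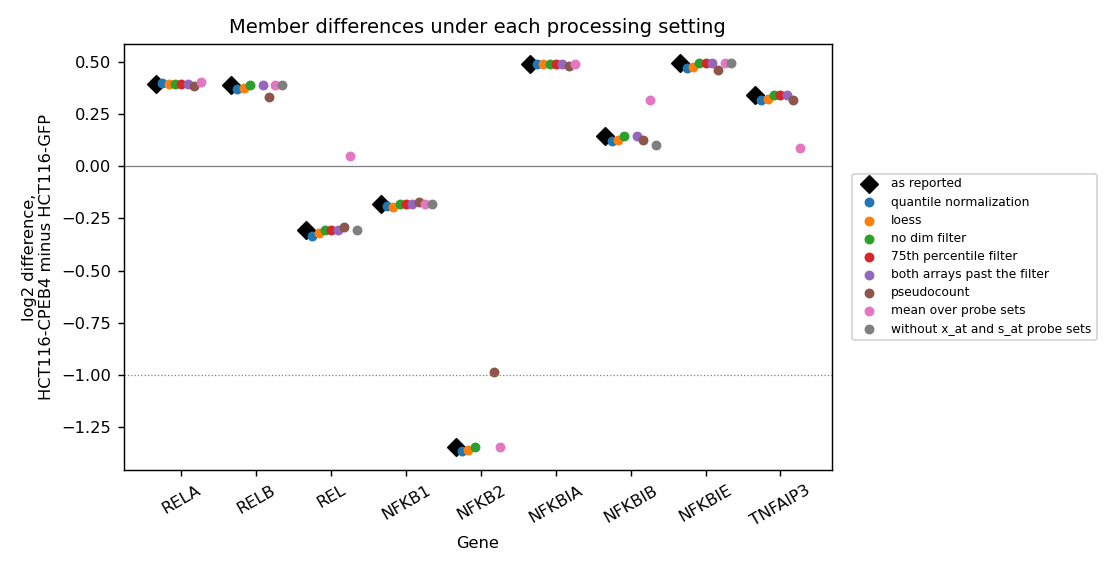
log2 difference (HCT116-CPEB4 minus HCT116-GFP) of the 9 measured member genes as reported (black diamonds) and under 8 other settings (coloured points), with a dotted line at 2-fold lower. RELA, RELB, NFKBIA and NFKBIE lie above 0 where measured, and RELB, NFKBIA and NFKBIE, with 1 kept probe set each, could move only with scaling or the pseudocount. REL crosses 0 with the mean over probe sets, and NFKB2 lies at −0.99 with the pseudocount.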

How the data were processed

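The authors' deposited table gives 1 linear intensity per probe set and array for 2 samples, grouped by title. Per the submitters' processing notes, Partek was used, with no version or role stated. Summarisation, background correction and scaling are steps not given in the sources used here. Probe sets were named through the platform annotation and updated by Entrez identifier to RefSeq (GRCh38.p14): 41097 have 1 symbol, 1801 several and 11777 none, and only the first were used, without 62 control probe sets. The log2 ratio was computed from the deposited intensities with no pseudocount, in Python 3.11.15 with pandas 2.3.3. All value columns were used. With 1 array per group there is no test, and their number limits the precision. The procedure was tested on simulated data with large changes planted in brighter probe sets only. That test does not cover the small or dim differences described here. Members and lists were chosen with earlier results of these data known. Genes named outside the members were those past 2-fold in each list, at most 4 by size, plus its 2 brightest, with exceptions stated. Some others are named because their probe sets disagree. Alternatives were quantile and loess scaling (statsmodels 0.14.6), other filters, a pseudocount of 32, the mean over probe sets, and leaving out probe sets with suffix x_at or s_at.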

Additional observations from a re-analysis of the deposited data

How the results depend on the processing

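The member median stayed above 0 in all 8 alternatives, between 0.10 and 0.37, with the lowest value without x_at and s_at probe sets, where 5 members were measured. The count of member genes past 2-fold, 1 as reported, was 0 under the 75th percentile filter, with both arrays past the filter, with the pseudocount and without x_at and s_at probe sets, and so was the count of member probe sets. In all but the pseudocount setting this is because the NFKB2 probe set was not kept. Among upstream genes, 2 passed as reported, 7 of 71 with no dim filter (9.86% beside 18.4% of all genes), 4 of 62 with the mean over probe sets (6.45% beside 8.89%), 4 of 50 without x_at and s_at probe sets (8.0% beside 8.79%), and 0 under the 75th percentile filter (beside 0.638%) or with both arrays past the filter (beside 1.31%). Target genes past 2-fold numbered 4 of 28 as reported (14.3% beside 7.4% of all genes). Under the 75th percentile filter there were 0 of 16, beside 0.638%. Otherwise they numbered 3 to 6, including 1 lower gene with no dim filter and 1 with the mean over probe sets. With no dim filter, 5 of 35 passed, a share of 14.3% that lay below the 18.4% of all genes. The share was 21.4% beside 8.89% with the mean over probe sets, and 19.0% beside 8.79% without x_at and s_at probe sets. With both arrays past the filter it was 11.5% beside 1.31%, and with the pseudocount 14.3% beside 4.18%. REL turned from −0.31 to 0.051 with the mean over probe sets. Scaling moved the median of all genes by less than 0.1. No paired analysis was possible because each group has 1 array. Dim probe sets limit NFKB2, IL1B, TLR3 and CXCL10, and the HCT116-GFP value of CCL5 lay just above the filter.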
